A study of Mus musculus with 4 samples.

Results

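The genes described here encode heat shock proteins, DNAJ co-chaperones and BAG co-chaperones. They were chosen by name in the deposited gene table: tested rows that name a single gene whose symbol starts with Hspa, Hspb, Hspd, Hspe or Hsph and a digit, with Hsp90, with Dnaj or with Bag and a digit, except the mitochondrial chaperone genes Hspd1, Hspe1, Hspa9 and Dnaja3. That gave 64 rows for 63 genes, of 14134 tested rows in all, because Dnajb6 stood in 2 rows. The working name of this set, cytosolic chaperones, does not hold for all of it: by background knowledge 14 of the rows are genes of the endoplasmic reticulum (ER) and 5 are genes of mitochondria, and the other 45 include genes of the cytosol and nucleus. A further 10 rows matched by name, had 0.205 FPKM or less in Fundc1-MKO and 0.204 FPKM or less in WT, and were left untested by the authors. The member with the lowest level was a second, minor Dnajb6 row with 1.14 FPKM in Fundc1-MKO and 1.18 FPKM in WT.

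The tissue was gastrocnemius, a calf muscle, from C57BL/6J mice aged 8 weeks, and the assay was RNA sequencing. The labels give 2 libraries of mice with a muscle-specific Fundc1 knockout (Fundc1-MKO) and 2 of wild-type control mice (WT), called biological replicates. The sources used here do not give the Cre driver, the deleted exon or the sex. FUNDC1 sits in the outer membrane of mitochondria, acts as a mitophagy receptor and is also known to bind HSC70, the product of Hspa8. The table holds 1 FPKM value (fragments scaled to transcript length and library size) per gene and group with the authors' interval around it, so neither the values of single mice nor the depth of each library are known here. A gene is called lower or higher ("fell" or "rose") only where its q-value in the authors' deposited table was under 0.05.

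Chaperones help other proteins to fold, hold them when they unfold and pass damaged ones on for degradation. Small heat shock proteins bind unfolding clients without using ATP, HSP70 and HSP90 work through cycles of ATP hydrolysis, DNAJ proteins bring clients to HSP70, and BAG and HSP110 proteins release its nucleotide. In skeletal muscle several small heat shock proteins sit at the sarcomere and Z-disc, and the heat shock transcription factor HSF1 raises many of these genes under stress through heat shock elements in their promoters.

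The promoters of the 3 genes that fell (Hspa2, Hspb6 and Hspb7) are shown first, followed by that of Hspb1, the member with the next smallest q. The stress-inducible Hspa1a and the ER member Hspa5 are shown for comparison. Each run covers 250 bases before to 50 after the start site, 5′ to 3′ on the gene's strand, from RefSeq in the build GRCm38.p6, at chr12:76404120-76404419 (plus strand), chr7:30553051-30553350 (plus), chr4:141420529-141420828 (plus), chr5:135887669-135887968 (plus), chr17:34972107-34972406 (minus) and chr2:34771840-34772139 (plus). Capitals mark a core heat shock element (GAANNTTC or TTCNNGAA) or an ER stress response element (CCAAT, then 9 bases of any kind, then CCACG), searched on both strands.
Hspa2: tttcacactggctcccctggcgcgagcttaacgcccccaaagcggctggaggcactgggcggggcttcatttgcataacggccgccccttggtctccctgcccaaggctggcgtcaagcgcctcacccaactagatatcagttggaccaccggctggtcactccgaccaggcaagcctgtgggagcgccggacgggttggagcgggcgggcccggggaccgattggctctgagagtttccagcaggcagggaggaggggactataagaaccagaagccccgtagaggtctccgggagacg
Hspb6: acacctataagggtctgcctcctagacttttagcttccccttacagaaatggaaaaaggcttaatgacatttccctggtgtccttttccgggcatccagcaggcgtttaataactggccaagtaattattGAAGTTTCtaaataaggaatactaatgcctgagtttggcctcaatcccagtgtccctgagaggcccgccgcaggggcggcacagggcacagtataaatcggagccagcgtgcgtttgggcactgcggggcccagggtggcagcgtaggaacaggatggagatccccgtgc
Hspb7: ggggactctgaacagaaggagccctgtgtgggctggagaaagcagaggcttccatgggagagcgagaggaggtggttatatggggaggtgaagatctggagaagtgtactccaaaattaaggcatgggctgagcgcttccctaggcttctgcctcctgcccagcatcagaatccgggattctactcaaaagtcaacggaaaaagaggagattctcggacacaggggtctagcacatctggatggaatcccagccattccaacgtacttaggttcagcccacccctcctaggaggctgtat
Hspb1: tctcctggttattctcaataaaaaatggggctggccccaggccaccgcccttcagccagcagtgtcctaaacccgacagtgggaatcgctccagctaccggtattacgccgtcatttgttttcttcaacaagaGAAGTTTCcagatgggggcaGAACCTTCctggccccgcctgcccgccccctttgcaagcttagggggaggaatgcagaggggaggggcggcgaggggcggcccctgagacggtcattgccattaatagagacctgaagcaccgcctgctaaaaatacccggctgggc
Hspa1a: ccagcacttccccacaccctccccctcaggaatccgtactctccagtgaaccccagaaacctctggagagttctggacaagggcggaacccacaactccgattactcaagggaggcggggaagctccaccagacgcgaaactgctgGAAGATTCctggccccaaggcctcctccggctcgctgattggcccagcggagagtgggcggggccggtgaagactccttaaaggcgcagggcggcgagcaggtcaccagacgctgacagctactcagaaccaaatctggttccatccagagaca
Hspa5: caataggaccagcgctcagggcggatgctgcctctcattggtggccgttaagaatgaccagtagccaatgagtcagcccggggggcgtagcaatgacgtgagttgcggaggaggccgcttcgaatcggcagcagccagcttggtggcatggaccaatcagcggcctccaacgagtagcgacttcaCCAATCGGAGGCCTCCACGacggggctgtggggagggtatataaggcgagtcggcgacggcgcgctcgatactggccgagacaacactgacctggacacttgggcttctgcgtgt

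The windows of Hspb6, Hspb1 and Hspa1a held the letters of a core heat shock element and those of Hspa2 and Hspb7 did not, so the genes that fell did not share it. Hspb1 held 2 such elements, ending 109 and 89 bases before the start site. Hspb6 held 1 at 112 bases before its second start site, and the window of its first start site held none. Hspa5 held 1 ER stress response element, which ended 46 bases before the start. RefSeq windows were found for 51 of the 63 genes. A core heat shock element stood in 14 of these 51 (27.5%), in 4 of 6 small heat shock genes, in 3 of 10 HSP70 and HSP110 genes and in 6 of 29 DNAJ genes, against 14.2% of 9507 tested genes with a window. The ER stress response element stood in 3 of 12 ER members, Hspa5, Hsp90b1 and Dnajc3, against 0.179% of the tested genes. A gene with several start sites was counted once if any window matched, and the 2 forms of the core heat shock element can overlap. A match describes letters only and shows no binding.

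Fundc1, the targeted gene, was at 4.23 FPKM in Fundc1-MKO (interval 3.15 to 5.31) and 20.1 FPKM in WT (interval 16.3 to 23.8). Its log2 ratio of Fundc1-MKO over WT was -2.25 with an SE of 0.23 derived from the intervals; the authors' deposited table gives q = 0.00338. Of the 7 muscle marker genes fixed for a check of the tissue, Myh1, Myh2 and Mb had values of 384 FPKM or more in both groups, and the other 4, Acta1, Ckm, Myh4 and Tnnt3, were marked HIDATA (too many fragments to quantify) and listed at 0. Myh1, Myh2 and Mb were all at lower FPKM in Fundc1-MKO (sum 2503 FPKM in Fundc1-MKO and 2927 FPKM in WT), and of them only Myh2 fell. The part of this shift in the chaperone values was not tested.

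The small heat shock genes Hspb6 and Hspb7 and a minor HSP70 gene, Hspa2, were lower in Fundc1-MKO muscle. No DNAJ, HSP90 or BAG gene passed the test. Of the 64 rows 3 fell and none rose: Hspb7 by 0.45, Hspb6 by 0.29 and Hspa2 by 0.46 on the log2 scale. These 3 make up 4.69% of the members. Over all tested rows 3.17% passed in either direction, 2.25% lower and 0.92% higher in Fundc1-MKO. The members' count is near that background and is not a result about chaperones as a whole. Nor is the lack of a call among 36 DNAJ, 3 HSP90 and 6 BAG rows a result about those families at that background. A difference in calls between families was not tested. A raw (unadjusted) p below 0.05 by the authors' deposited table was reached by 7 members, all at lower FPKM in Fundc1-MKO, and by 13.7% of all tested rows, 8.97% with the lower value in Fundc1-MKO. At q under 0.1 in the authors' deposited table there were 4 members, against 4.92% of all tested rows. The 7 were Hspb7, Hspb6, Hspb1, Hspa2, Hspa1a, Hspa5 and Hspa13, all heat shock genes.

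**Figure D1:**
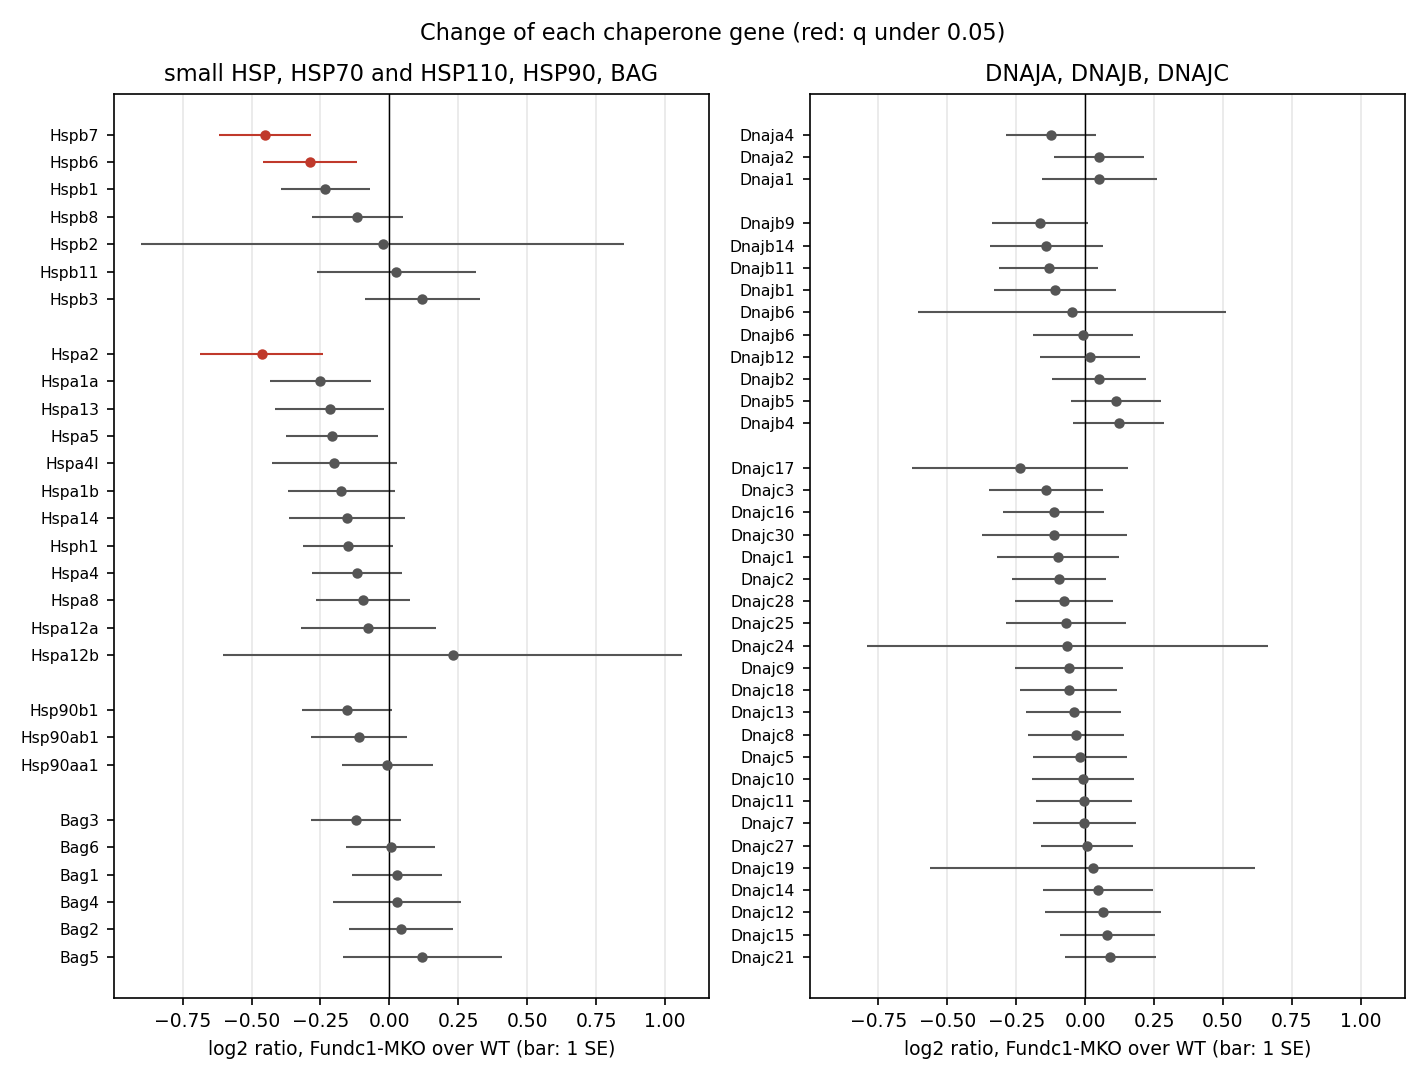
Log2 ratio of FPKM, Fundc1-MKO over WT, for each of the 64 chaperone rows, with a bar of 1 SE on each side derived from the authors' intervals. Hspb7, Hspb6 and Hspa2, in red, passed q under 0.05; 35 of the 36 DNAJ rows lie within 0.2 of 0.

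Beyond the called genes, the direction of the values can be counted by family. Lower FPKM in Fundc1-MKO was found in 44 of 64 members (68.8%), against 56.6% of all tested rows. By family it was 5 of 7 small heat shock genes, 11 of 12 HSP70 and HSP110 genes, 3 of 3 HSP90 genes, 24 of 36 DNAJ rows and 1 of 6 BAG genes. With Fundc1-MKO and WT scaled to equal medians, which adds 0.03 to every log2 ratio, 37 of the 64 members (57.8%) and 47.3% of all tested rows were lower in Fundc1-MKO. By family the scaled counts were 4 of 7 small heat shock genes, 11 of 12 HSP70 and HSP110 genes, 2 of 3 HSP90 genes, 19 of 36 DNAJ rows and 1 of 6 BAG genes. The median log2 ratio, with 1 FPKM added to each value, was -0.05 over the members and -0.02 over all tested rows, and at equal medians -0.03 over the members and 0.01 over all tested rows. As deposited it was -0.12 over the small heat shock genes, -0.15 over HSP70 and HSP110, -0.11 over HSP90, -0.03 over DNAJ and 0.02 over BAG. These counts and medians were not tested, since values of single libraries did not enter.

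The small heat shock genes carried the largest part of the chaperone signal, and most of the difference in its sum. FPKM is scaled to length, so levels can be added across genes. The 7 small heat shock genes summed to 2423 FPKM in Fundc1-MKO and 2892 FPKM in WT, a log2 ratio of the sums of -0.26. They held 41.3% of the members' summed FPKM in Fundc1-MKO and 44.5% in WT. The sums of the 36 DNAJ rows were 1147 FPKM in Fundc1-MKO and 1141 FPKM in WT. These sums have no error of their own here, since single libraries were not analysed.

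Hspb6 encodes HSP20, a small heat shock protein of striated and smooth muscle, and was the most abundant member. It was at 1068 FPKM in Fundc1-MKO (interval 891 to 1244) and 1303 FPKM in WT (interval 1087 to 1520). The log2 ratio was -0.29 with an SE of 0.17, a 1.22-fold lower level, with q = 0.0185 in the authors' deposited table. The intervals of the groups overlapped. Its row (XLOC_020011) spans chr7:30539134-30559646 in mm10, a stretch of 20513 bases that the annotation shares with the minus-strand genes Proser3 and Lin37, and the table's full name for it also lists Gm38670. Reads of these genes cannot be told apart from Hspb6 here if the counting ignored strand, which the sources used here do not state.

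Hspb7 encodes a heart and muscle small heat shock protein that binds the Z-disc protein filamin C. It was at 301 FPKM in Fundc1-MKO (interval 252 to 350) and 411 FPKM in WT (interval 343 to 480), so the intervals met by a small overlap. This 1.37-fold lower level was a log2 ratio of -0.45 (SE 0.17), and the authors' deposited table gives q = 0.00338. That is the smallest q it holds, but it is a tie. The authors' unadjusted p behind it, 5e-05, is shared by 209 tested rows, Fundc1 and Hspa2 among them. This q therefore does not rank these genes against each other. The row (XLOC_015874) lies at chr4:141420779-141428739 in mm10 and holds no other annotated gene.

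Hspb1, whose product HSP25 guards the actin cytoskeleton, stood just outside the threshold. It was at 545 FPKM in Fundc1-MKO and 640 FPKM in WT, with a log2 ratio of -0.23 (SE 0.16) and q = 0.0854 in the authors' deposited table. A pseudogene, Hsp25-ps1, shares 51.6% of the 50-base stretches of its transcript. Hspb8, whose product works with BAG3 in the removal of damaged Z-disc proteins, was at 344 FPKM in Fundc1-MKO and 373 FPKM in WT, with q = 0.621 in the authors' deposited table. Of the 5 small heat shock genes with a mean of at least 100 FPKM, all were at lower deposited values in Fundc1-MKO, and 4 at equal medians, where Hspb2 turned to a log2 ratio of 0.01.

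The other 3 small heat shock genes gave no difference that the test could call. Hspb2 was at 121 FPKM in Fundc1-MKO and 123 FPKM in WT, but its intervals were wide, 21.9 to 220 and 12.6 to 234 FPKM, and its locus overlaps Cryab on the other strand. Hspb3, the partner of HSPB2 in a muscle complex, was at 31.1 FPKM in Fundc1-MKO and 28.6 FPKM in WT (log2 ratio 0.12, SE 0.21). Hspb11, named with this family but known as a component of intraflagellar transport in cilia, was at 13.4 FPKM in Fundc1-MKO and 13.2 FPKM in WT.

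Cryab, which encodes alphaB-crystallin, belongs to the small heat shock family by structure but not by name, so it was taken from the related lists. It was at 2001 FPKM in Fundc1-MKO and 2512 FPKM in WT, above each of the 64 members. The log2 ratio was -0.33 (SE 0.20), with q = 0.0371 in the authors' deposited table. Its relative Cryaa was listed at 0 in both groups.

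**Figure D2:**
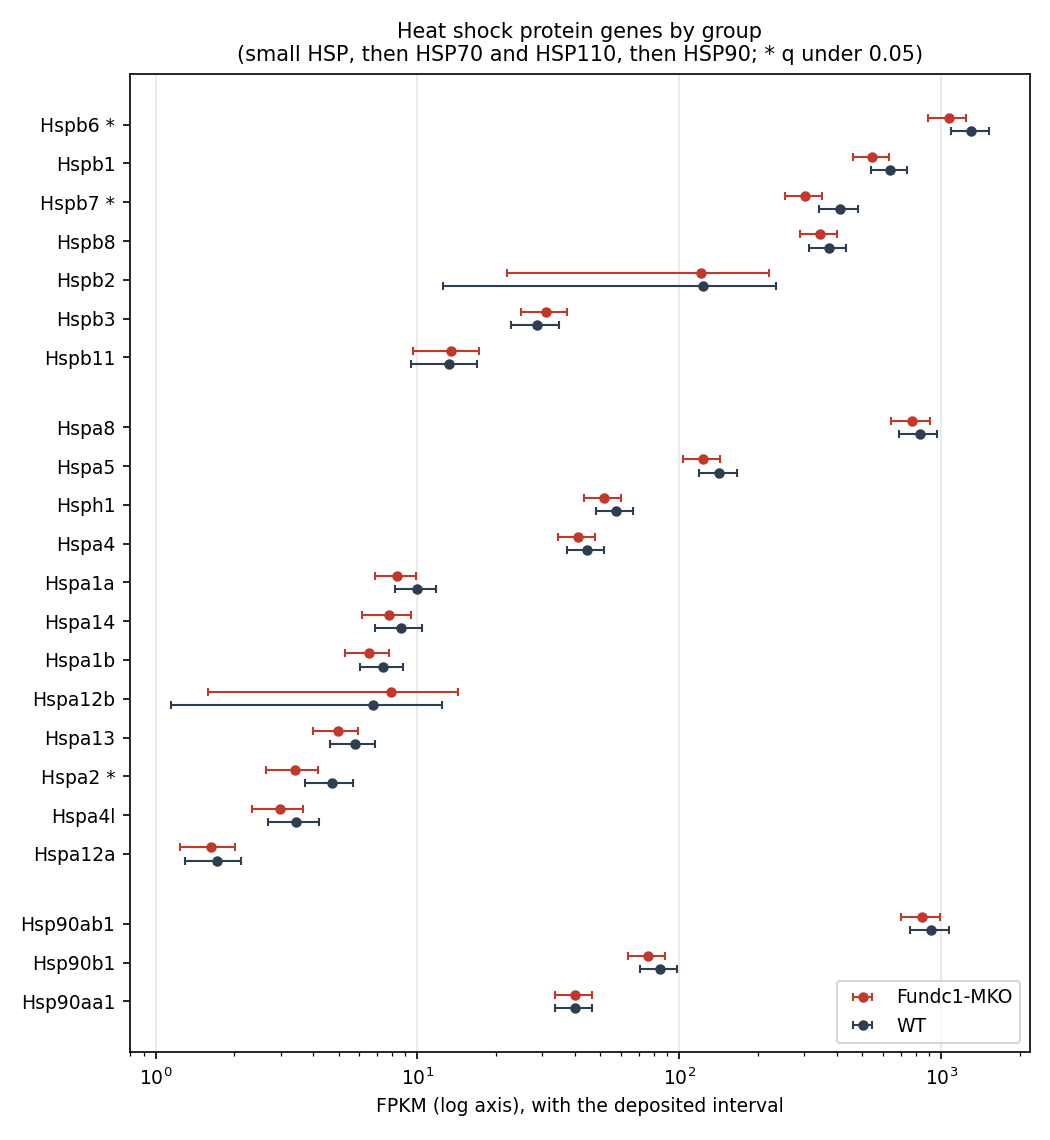
FPKM on a log axis of the 22 heat shock members in Fundc1-MKO (red, upper of each pair) and WT (dark, lower), with the authors' interval as a bar. The Fundc1-MKO point lies left of the WT point for 19 of the 22 genes, and the bars of each pair overlap.

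Among the HSP70 genes 1 of 12 fell. Hspa2, a gene best known from the testis, where mouse sperm development needs it, was a minor member at 3.41 FPKM in Fundc1-MKO (interval 2.64 to 4.18) and 4.70 FPKM in WT (interval 3.72 to 5.69). This 1.38-fold lower level was a log2 ratio of -0.46 (SE 0.22), with q = 0.00338 in the authors' deposited table. The row (XLOC_004774) lies at chr12:76404176-76406936 in mm10 on the plus strand, with no other annotated gene in it.

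Hspa8, the constitutive HSC70, is the dominant HSP70 gene of this tissue. It was at 774 FPKM in Fundc1-MKO (interval 645 to 903) and 827 FPKM in WT (interval 690 to 965), with a log2 ratio of -0.10 (SE 0.17) and q = 0.748 in the authors' deposited table. Other annotated genes, mostly the pseudogene Gm15459, share 73.2% of the 50-base stretches of its transcript, so its value depends on how such reads were assigned. Hspa4 and Hsph1, both HSP110-type exchange factors of HSP70, were at 41.0 and 51.5 FPKM in Fundc1-MKO and at 44.5 and 57.1 FPKM in WT. Their relative Hspa4l was at 2.99 FPKM in Fundc1-MKO and 3.43 FPKM in WT. None of the 3 passed q.

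The stress-inducible pair Hspa1a and Hspa1b was low in both groups. Hspa1a was at 8.39 FPKM in Fundc1-MKO and 9.97 FPKM in WT, with a log2 ratio of -0.25 (SE 0.18), an unadjusted p = 0.0075 and q = 0.129 in the authors' deposited table. Hspa1b was at 6.56 FPKM in Fundc1-MKO and 7.40 FPKM in WT (log2 ratio -0.17, SE 0.19). Hspa1a shares 58.8% of its 50-base stretches with Hspa1b, so the split of reads between them is uncertain. Their sum was 14.9 FPKM in Fundc1-MKO and 17.4 FPKM in WT, a log2 ratio of -0.22. Another relative, Hspa1l, shares its row with Lsm2 and was not counted as a member.

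The remaining HSP70 genes were small contributors. Hspa14, which works at the ribosome with the product of Dnajc2, was at 7.79 FPKM in Fundc1-MKO and 8.68 FPKM in WT. Hspa12a was at 1.62 FPKM in Fundc1-MKO and 1.71 FPKM in WT. Hspa12b, a gene of endothelium, was the only HSP70 gene at a higher value in Fundc1-MKO, 7.94 FPKM against 6.77 FPKM in WT. Its log2 ratio of 0.23 had an SE of 0.83, and its row spans 477413 bases with 11 other coding genes.

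HSP90 genes showed no change that the test could call. Hsp90ab1, the constitutive cytosolic form, was at 848 FPKM in Fundc1-MKO (interval 703 to 993) and 915 FPKM in WT (interval 759 to 1072), with a log2 ratio of -0.11 (SE 0.17). Hsp90aa1, the inducible form that myosin folding also uses, was at 39.9 FPKM in Fundc1-MKO and 40.1 FPKM in WT, with a log2 ratio of -0.01 (SE 0.17). That sign turns to 0.02 when the groups are scaled to equal medians. Gm12346 and other genes share 58.5% of the 50-base stretches of Hsp90aa1.

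Chaperones of the ER were mostly at lower values in Fundc1-MKO, without a called member. Of the 14 ER rows 12 were at lower FPKM in Fundc1-MKO (11 at equal medians), 2 had a raw p below 0.05 by the authors' deposited table and none passed q. Over all tested rows 56.6% were at lower FPKM in Fundc1-MKO (47.3% at equal medians). By the authors' deposited table, 14.3% of the ER rows and 13.7% of all tested rows had a raw p below 0.05. That count is near the background, and the difference in direction was not tested. Hspa5, the ER chaperone BiP, was at 123 FPKM in Fundc1-MKO (interval 103 to 143) and 142 FPKM in WT (interval 119 to 165), with a log2 ratio of -0.21 (SE 0.17) and q = 0.164 in the authors' deposited table. Its row spans 27823 bases and also holds the coding gene Rabepk. Hsp90b1, the ER form of HSP90 known as GRP94, was at 75.9 FPKM in Fundc1-MKO and 84.4 FPKM in WT (q = 0.401 in the authors' deposited table). Hspa13, a microsomal HSP70-like protein, was at 4.95 FPKM in Fundc1-MKO and 5.76 FPKM in WT (q = 0.268 in the authors' deposited table).

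Most BiP co-chaperones also had lower values in Fundc1-MKO, but none was called. Dnajb9, which regulates the stress sensor IRE1 through BiP, was at 33.2 FPKM in Fundc1-MKO and 37.2 FPKM in WT, with the smallest unadjusted p among the DNAJ rows, 0.0578 in the authors' deposited table. Dnajb11 was at 29.2 FPKM in Fundc1-MKO and 31.97 FPKM in WT, and Dnajc3 at 14.1 FPKM in Fundc1-MKO and 15.5 FPKM in WT. Dnajc10, an ER disulfide reductase, was level at 10.1 FPKM in Fundc1-MKO and 10.2 FPKM in WT. None of these 4 differences exceeded its SE on the log2 scale.

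A list of 21 other ER chaperone and ER stress genes held called genes. The background for this and the lists that follow is the tested rows with a mean of at least 1 FPKM, of which 2.99% passed q and 11.4% had a raw p below 0.05 by the authors' deposited table. Of that background 56.3% were at lower FPKM in Fundc1-MKO. Measured genes of a list are those at that mean, and the lists were not recounted at equal medians. In the ER list 3 genes fell, none rose, 18 were at lower FPKM in Fundc1-MKO, 9 had a raw p below 0.05 by the authors' deposited table and the median log2 ratio was -0.15. Sdf2l1, a BiP cofactor, fell to 9.58 FPKM in Fundc1-MKO, against 13.1 FPKM in WT (q = 0.00615 in the authors' deposited table). Manf, a secreted ER stress factor, fell to 20.2 FPKM in Fundc1-MKO, against 25.9 FPKM in WT (q = 0.00852 in the authors' deposited table). The disulfide isomerase gene Pdia4 fell to 8.98 FPKM in Fundc1-MKO, against 11.5 FPKM in WT (q = 0.0144 in the authors' deposited table). Calr, the lectin chaperone calreticulin, was at 140 FPKM in Fundc1-MKO and 162 FPKM in WT, and the stress transcription factor gene Xbp1 was at 45.5 FPKM in Fundc1-MKO and 43.9 FPKM in WT; neither passed q. Of 5 fibroblast markers, genes of secretory cells, 3 collagen genes fell in the same comparison, and the most abundant marker, Dcn, did not. The part of fibroblasts in these values was not tested.

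DNAJ genes, the largest family, were close to level. None of the 36 rows passed q and none reached a raw p below 0.05 by the authors' deposited table, where 13.7% of all tested rows did. Of the 36, 25 lay within 0.1 of 0 on the log2 scale and 35 within 0.2, and the exception was Dnajc17 at -0.24 with an SE of 0.39. The share of all tested rows within these bounds was not counted, so the counts do not set the DNAJ genes apart. The intervals are too wide to show that these genes did not change.

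Among the DNAJ partners of cytosolic HSC70, Dnaja2 was at 106 FPKM in Fundc1-MKO and 102 FPKM in WT, and Dnaja1 at 17.9 FPKM in Fundc1-MKO and 17.3 FPKM in WT. Dnaja4 was at 60.5 FPKM in Fundc1-MKO and 65.9 FPKM in WT. Dnajb1, the classic heat-inducible HSP40, was low at 3.63 FPKM in Fundc1-MKO and 3.92 FPKM in WT. These 4 had log2 ratios between -0.12 and 0.05, and none of their differences exceeded its SE.

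Dnajb6, a Z-disc co-chaperone mutated in a human limb-girdle muscular dystrophy, was at 72.3 FPKM in Fundc1-MKO and 72.7 FPKM in WT in its main row (log2 ratio -0.01, SE 0.18). Dnajb2, a ubiquitin-binding co-chaperone, was at 75.6 FPKM in Fundc1-MKO and 73.0 FPKM in WT. Dnajb4 and Dnajb5 had the largest positive ratios of the DNAJ rows, 0.12 and 0.11, each with an SE of 0.16. Dnajb5 was at 78.8 FPKM in Fundc1-MKO and 72.9 FPKM in WT, and Dnajb4 at 52.9 FPKM in Fundc1-MKO and 48.7 FPKM in WT. Dnajb12, an ER-membrane co-chaperone of protein degradation, was at 36.8 FPKM in Fundc1-MKO and 36.3 FPKM in WT.

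The DNAJC genes have the most varied roles and none stood out. Dnajc15 and Dnajc19, which act at the mitochondrial import motor, were at 125 and 88.3 FPKM in Fundc1-MKO and at 118 and 86.7 FPKM in WT. The interval of Dnajc19 was wide, 37.9 to 139 FPKM in Fundc1-MKO and 36.3 to 137 FPKM in WT. Dnajc30, a mitochondrial gene whose row also holds Bud23, was at 29.7 FPKM in Fundc1-MKO and 32.1 FPKM in WT. Dnajc21, a ribosome biogenesis factor, was at 56.6 FPKM in Fundc1-MKO and 53.1 FPKM in WT, and the ribosome-bound Dnajc2 at 28.3 FPKM in Fundc1-MKO and 30.2 FPKM in WT. Dnajc7, a bridge between HSP70 and HSP90, was at 37.9 FPKM in Fundc1-MKO and 38.0 FPKM in WT. Dnajc8, a splicing-associated gene, was at 35.6 FPKM in Fundc1-MKO and 36.5 FPKM in WT. Dnajc5, the cysteine string protein of synaptic vesicles, was at 21.8 FPKM in Fundc1-MKO and 22.1 FPKM in WT, and Dnajc27 at 22.6 FPKM in Fundc1-MKO and 22.4 FPKM in WT. Dnajc12, a co-chaperone of aromatic amino acid hydroxylases, was at 12.0 FPKM in Fundc1-MKO and 11.5 FPKM in WT.

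No BAG gene passed q, and 5 of 6 were at slightly higher values in Fundc1-MKO. As for the DNAJ rows, the intervals are too wide to show that these genes did not change. Bag1 was the most abundant at 142 FPKM in Fundc1-MKO and 140 FPKM in WT. Bag6, which handles tail-anchored and misplaced membrane proteins, was at 71.8 FPKM in Fundc1-MKO and 71.5 FPKM in WT. Bag3, the partner of HSPB8 in chaperone-assisted selective autophagy, was the exception at 61.6 FPKM in Fundc1-MKO and 67.1 FPKM in WT, with a log2 ratio of -0.12 (SE 0.16) and q = 0.565 in the authors' deposited table. Bag2, Bag4 and Bag5 were at 13.8, 2.28 and 9.73 FPKM in Fundc1-MKO and at 13.4, 2.23 and 8.95 FPKM in WT.

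**Figure D3:**
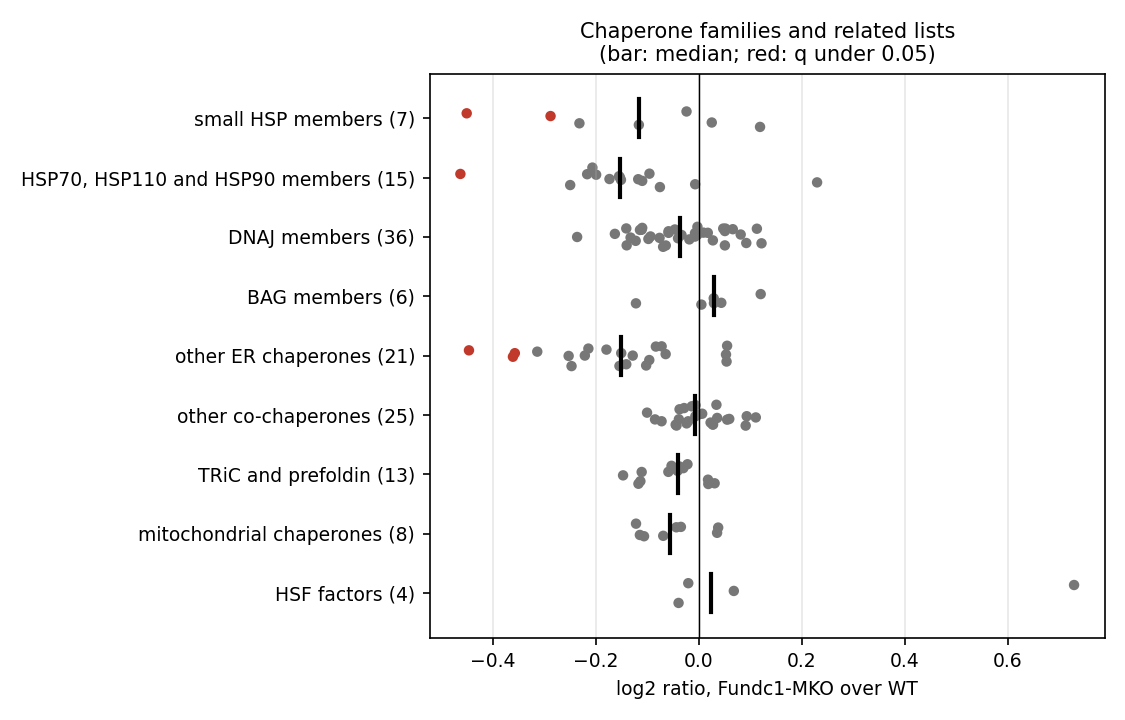
Log2 ratio of FPKM, Fundc1-MKO over WT, of each gene in 4 member families and 5 related lists, with the number of genes in brackets, the median as a bar and genes with q under 0.05 in red. The called genes are Hspb7 and Hspb6, Hspa2, and Sdf2l1, Pdia4 and Manf of the ER list.

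The HSF genes and the wider co-chaperone network gave no call. Of 6 HSF genes and regulators 4 were measured at a mean of at least 1 FPKM; Hsf1 was at 39.1 FPKM in Fundc1-MKO and 37.3 FPKM in WT and Hsf2 at 13.98 FPKM in Fundc1-MKO and 14.2 FPKM in WT. The binding protein gene Hsbp1 was at 112 FPKM in Fundc1-MKO and 115 FPKM in WT, and Hsbp1l1 at 1.84 FPKM in Fundc1-MKO and 1.11 FPKM in WT with an SE of 1.27 on the log2 scale. Of 25 measured co-chaperones outside the name rule none passed q or a raw p below 0.05 by the authors' deposited table, lower FPKM in Fundc1-MKO was found for 14, and the median log2 ratio was -0.01. Among them Unc45b, the myosin chaperone of striated muscle, was at 128 FPKM in Fundc1-MKO and 135 FPKM in WT, and its partner in sarcomere assembly Smyd1 at 226 FPKM in Fundc1-MKO and 225 FPKM in WT. Stip1, which links HSP70 to HSP90, was at 68.5 FPKM in Fundc1-MKO and 72.7 FPKM in WT.

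The chaperonin TRiC, which folds actin and tubulin, and its helper prefoldin gave no call among 13 measured genes, none of them at a raw p below 0.05 by the authors' deposited table (median log2 ratio -0.04). Of the 8 mitochondrial chaperone genes, 4 of which the name rule leaves out, none passed q or a raw p below 0.05 by the authors' deposited table, and the median log2 ratio was -0.06. Hspe1 was at 292 FPKM in Fundc1-MKO and 316 FPKM in WT, and Hspd1 at 145 FPKM in Fundc1-MKO and 157 FPKM in WT.

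Chaperone-assisted selective autophagy at the Z-disc joins several of these genes. Of 8 measured genes of that list, which holds 4 members, 7 were at lower FPKM in Fundc1-MKO, Cryab fell and 3 had a raw p below 0.05 by the authors' deposited table. Those 3 were Cryab, Flnc and Sqstm1, and none of them is a member. Flnc, the filamin C gene whose product HSPB7 binds, was at 187 FPKM in Fundc1-MKO and 221 FPKM in WT (log2 ratio -0.24, SE 0.18). It did not pass q (0.120 in the authors' deposited table). Sqstm1, which encodes the p62 cargo receptor of autophagy, stood at 278 FPKM in Fundc1-MKO and 325 FPKM in WT (log2 ratio -0.22, SE 0.17). Its q was 0.130 in the authors' deposited table. Synpo2, a Z-disc adaptor of BAG3, was at 179 FPKM in Fundc1-MKO and 175 FPKM in WT.

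Genes of other fibre and cell types moved in the same comparison. In bulk muscle, fewer cells of a type and less RNA per cell cannot be told apart. Of 11 slow and IIa fibre genes, a list added after seeing the data, 10 were at lower FPKM in Fundc1-MKO, 4 had a raw p below 0.05 by the authors' deposited table and Myh2 fell; their sum was 5066 FPKM in Fundc1-MKO and 5648 FPKM in WT, and their median log2 ratio was -0.12. All 6 macrophage markers were at lower FPKM in Fundc1-MKO and 4 fell (sum 50.4 FPKM in Fundc1-MKO and 72.9 FPKM in WT), and 3 of 5 fibroblast markers fell (sum 225 FPKM in Fundc1-MKO and 255 FPKM in WT). The fibroblast markers that fell were the collagen genes Col1a1, Col1a2 and Col3a1. Pdgfra was at lower FPKM in Fundc1-MKO without passing q. The most abundant, Dcn, was at 155 FPKM in Fundc1-MKO and 154 FPKM in WT. Of 5 measured smooth muscle and mural markers, also added later, none passed q, 1 had a raw p below 0.05 by the authors' deposited table, and the sum was 123 FPKM in Fundc1-MKO and 115 FPKM in WT. Of 4 epidermal markers Krt10 and Dmkn had a mean of at least 1 FPKM, and both fell (sum 1.65 FPKM in Fundc1-MKO and 4.66 FPKM in WT). Krt14 and Krt5, below that mean, were also at lower FPKM in Fundc1-MKO but did not pass q. All 4 neutrophil markers rose (sum 265 FPKM in Fundc1-MKO and 193 FPKM in WT). No gene passed q among 4 endothelial, 4 adipocyte and 3 Schwann cell markers, of which 1, 3 and none had a raw p below 0.05 by the authors' deposited table. All 4 endothelial and 3 of the 4 adipocyte markers were at higher FPKM in Fundc1-MKO, and 2 of the 3 Schwann cell markers at lower FPKM. Of the 3 adipocyte markers with that raw p, Plin1 and Fabp4 were at higher FPKM in Fundc1-MKO and Lep at lower FPKM. The part of these shifts in the chaperone values was not tested.

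**Figure D4:**
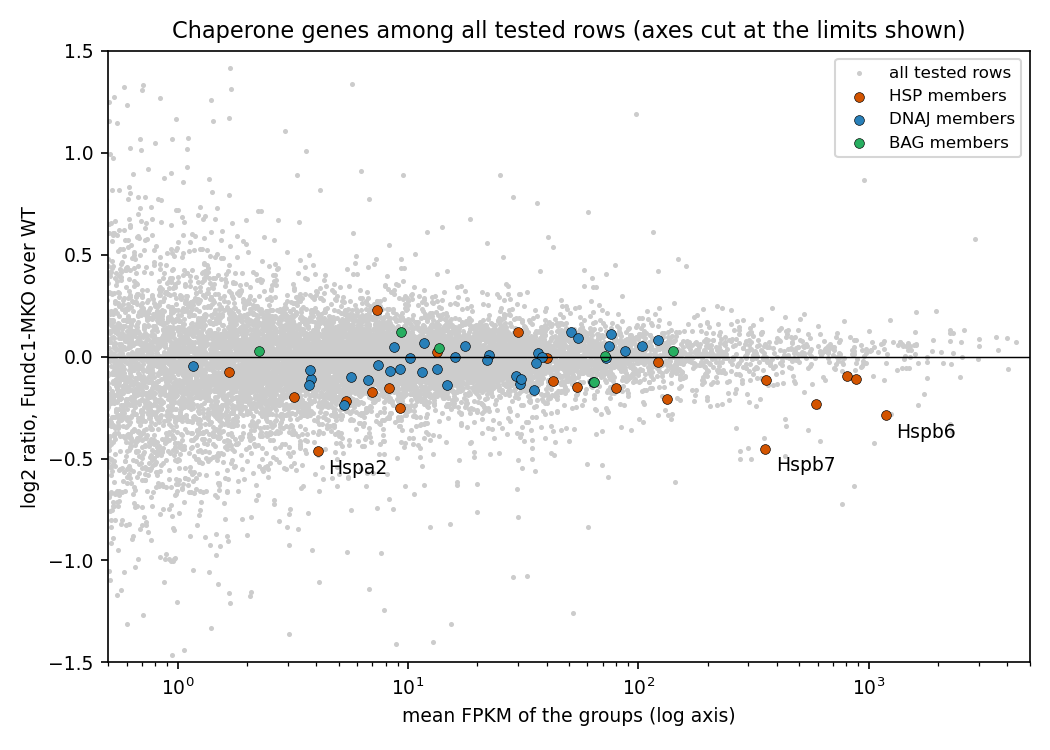
Log2 ratio, Fundc1-MKO over WT, against mean FPKM on a log axis, with all tested rows in grey and heat shock (orange), DNAJ (blue) and BAG (green) members on top. Hspb7 and Hspb6 lie low among abundant genes and Hspa2 low among weakly expressed ones; rows beyond the limits of the axes are not shown.

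Among the 11 members with a mean of at least 100 FPKM 2 fell, Hspb6 and Hspb7, and 8 were at lower FPKM in Fundc1-MKO (7 at equal medians). Of all 812 tested rows at that level 2.96% passed q and 45% were at lower FPKM in Fundc1-MKO (31.5% at equal medians). These 2 calls are among those already counted over all members, and the differences from these shares were not tested. All calls rest on the authors' own p-value, which was smaller than a normal reading of their statistic gives. The median size of the statistic was 0.981 over rows whose p lay at 0.04 to 0.06 by the authors' deposited table. Which of these readings is right was not settled, so what a q under 0.05 means here is uncertain. When their test statistic was read against a normal distribution and adjusted over all tested rows, none of the 64 members passed, against 0.198% of all rows, and the smallest unadjusted value was 0.00708 for Hspb7. The authors' intervals of the groups overlapped for all 64 members and lay apart for 0.715% of all tested rows.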

How the data were processed

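RNA of 2 Fundc1-MKO and 2 WT gastrocnemius muscles was sequenced. Tools listed per the submitters' processing notes are TopHat2 2.0.14, Cufflinks 2.2.1, FastQC 0.11.3 and bcl2fastq, with the build mm10 and no roles. The annotation, the strand handling and the settings are not stated in them. The deposited table holds, per the file headers, 1 FPKM with an interval per gene and group, a test statistic used here as a score, a p-value and a q-value, all made by the authors. Depth is unknown, and precision rests on the authors' intervals. No single-library values entered, so the authors' q under 0.05, adjusted by them over all tested rows, was the test. P-values measure only the spread their software assigned.

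Log2 ratios were computed from the deposited FPKM, with a pseudocount of 1 for medians over lists. The SE takes the distance to a bound as 2 SD; the ratio over this SE lay within 1% of the authors' statistic in 99.9% of 14100 rows. Start coordinates were raised by 1, since among rows whose end matched RefSeq 7597 started 1 base early and 214 at the same base. Strands and neighbours come from GENCODE M21, promoters from RefSeq. In 22 of the 64 rows the locus held another coding gene. Among them were Hspa5 with Rabepk, Dnajb11 with Ahsg, Dnajc3 with Uggt2 and Dnajc19 with Fxr1. The part of such genes in the values was not tested. A stretch counted as shared if all 50 bases stood in a transcript of another gene. The members and lists were chosen with earlier results of these data known. Named were Fundc1, every heat shock member, DNAJ and BAG members that passed q, had an unadjusted p under 0.05, a mean of at least 20 FPKM or one of the 8 largest ratios of all members in either direction, and in each list the genes past q and up to 4 others of high level. Dnajc3, Dnajc10, Dnaja1, Dnajb1, Bag2, Bag4 and some list genes, such as Xbp1, were named for their role after their values were seen. The script for the normal reading was tested on simulated data, which does not settle whether that reading or the authors' p-value is right. Python 3.11.15, numpy 2.4.6, pandas 2.3.3, scipy 1.17.1 and matplotlib 3.10.9 were used.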

Additional observations from a re-analysis of the deposited data

How the results depend on the processing

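The count of 3 members that fell became 7 at a raw p below 0.05 by the authors' deposited table, 0 by the normal reading of the statistic and 0 where the intervals had to lie apart. It stayed within 1.5 times of 3 at q under 0.1 (4), at a mean of at least 1 FPKM (3) or 5 FPKM (2), with rows naming several genes (3), without ER and mitochondrial members (3) and, an alternative chosen after seeing the data, without members whose row lists a second gene (2, Hspb6 being left out). No member rose under any of these 9 alternatives. Lower FPKM in Fundc1-MKO was found in 37 members at equal medians or equal totals and in 29 without ER and mitochondrial members, where only 45 rows remain. The members' median log2 ratio ranged from -0.06 without a pseudocount to -0.03 at equal medians. Scaling added 0.03 to every log2 ratio and turned 7 members, none of them called, to higher values, Dnajc10 and Dnajc11 among them. For the other 5, at equal medians and at equal totals Dnajb6 came to 0.0237 and 0.0232, Dnajc5 to 0.0127 and 0.0122, Dnajc7 to 0.0284 and 0.0278, Hsp90aa1 to 0.0240 and 0.0235 and Hspb2 to 0.0072 and 0.0067. No paired analysis was possible because the table holds 1 value per group, and for the same reason no replicate could be left out.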
